A study of Homo sapiens and Canis lupus familiaris with 27 samples.

Results

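The 9 genes described here encode the inducible inhibitors that mitogen-activated protein kinase signalling places on itself: the dual-specificity phosphatases DUSP1, DUSP4, DUSP5 and DUSP6, the Sprouty proteins SPRY1, SPRY2 and SPRY4, and the Sprouty-related proteins SPRED1 and SPRED2. The rule lists them by name, and all 9 were found among the 23708 genes listed for each of the human lines PC-3 and LNCaP and among the 16028 genes listed for the canine line CT1258. PC-3 is a prostate adenocarcinoma line from a bone metastasis, LNCaP is one from a lymph node metastasis, and CT1258 was derived from a canine prostate adenocarcinoma, so that each line stands for a single tumour. Cells were exposed to the indolylmaleimide PDA-66 at 15 µM, during 12 h or 24 h, or to its solvent DMSO at 0.15% during 24 h, and polyadenylated RNA was sequenced. There were 3 libraries per group, except that 2 were available for PC-3 DMSO (replicates 2 and 3), which makes 26 libraries from the 27 samples labelled. Both PDA-66 groups of a line were set against the same DMSO libraries, all taken at 24 h, so the 12 h comparison was not matched in time.

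In the ERK cascade, a growth factor receptor activates RAS, which activates the kinases RAF, MEK and ERK in turn, and active ERK enters the nucleus and switches on target genes. Among these targets are the inhibitors themselves. DUSP proteins remove the activating phosphates from MAP kinases, Sprouty proteins act between the receptor and RAF, and SPRED proteins bring the RAS inactivator neurofibromin to the membrane. Because the transcripts are short-lived and follow ERK activity, they are widely used as a readout of ERK output, in prostate cancer cells as elsewhere. Phosphorylated ERK was not measured in these libraries, and fewer cells in a given state and less RNA per cell cannot be told apart in bulk RNA.

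Promoters of ERK target genes can carry short DNA elements through which ERK and its companion kinases act. RefSeq entries (GRCh38.p14) were matched by symbol for 7 of the 9 genes, with 11 transcription starts, and the 250 bases before each start were searched on both strands for the cyclic AMP response element (TGACGTCA), the AP-1 site (TGAGTCA), the ETS site (CCGGAAG), the octamer bound by the ERK-sensitive repressor CIC (TGAATGAA, TGAATGGA, TCAATGAA or TCAATGGA) and the CArG box. The 3 windows with a match are given 5′ to 3′ on the gene's strand, because these are the member promoters in which one of these elements was spelled out, with the match in capitals.
DUSP6 (chr12:89352502-89352751, minus strand): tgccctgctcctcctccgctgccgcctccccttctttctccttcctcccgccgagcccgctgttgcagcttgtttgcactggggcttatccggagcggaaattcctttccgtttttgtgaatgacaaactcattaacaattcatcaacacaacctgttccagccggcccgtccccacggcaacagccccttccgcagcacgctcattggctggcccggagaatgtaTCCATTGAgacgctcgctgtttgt
DUSP1 (chr5:172771196-172771445, minus strand): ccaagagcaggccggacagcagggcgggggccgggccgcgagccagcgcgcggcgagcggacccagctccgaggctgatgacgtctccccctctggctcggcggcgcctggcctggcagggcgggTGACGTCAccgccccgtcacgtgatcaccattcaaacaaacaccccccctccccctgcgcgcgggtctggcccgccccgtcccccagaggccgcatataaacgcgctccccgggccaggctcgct
SPRY1, one of its starts (chr4:123398136-123398385, plus strand): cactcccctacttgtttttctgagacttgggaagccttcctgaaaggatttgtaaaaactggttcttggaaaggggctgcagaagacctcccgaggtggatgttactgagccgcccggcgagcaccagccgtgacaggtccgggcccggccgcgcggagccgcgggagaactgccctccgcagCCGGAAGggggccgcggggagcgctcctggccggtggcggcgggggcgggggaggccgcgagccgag
The DUSP6 window held a CIC octamer on the opposite strand at -24 to -17 from the start, a sequence type found in 3.18% of 35116 promoters. The DUSP1 window held a full cyclic AMP response element at -125 to -118, found in 1.65% of promoters. The SPRY1 window held an ETS site at -67 to -61, found in 8.52% of promoters. AP-1 sites, found in 4.2% of promoters, and CArG boxes, found in 1.16%, were matched in none of the 11 member windows. These matches describe letters in a short window of the human reference and nothing about binding in these cells.

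Library totals were 14650839 to 18091755 counts in PC-3, 11923105 to 14741883 in LNCaP, and in CT1258 7203534 to 8325867 with PDA-66 against 19909616 to 20976950 with DMSO. LNCaP 12 h replicate 2 stood apart: its counts differed from those of its 2 partners with a chi-square per degree of freedom of 165.6 and 211.8, against 1.564 to 52.54 for the 23 other pairs within groups, so counts of genes called against DMSO in LNCaP are also given without it. No pair agreed within sampling noise. The luminal prostate marker KLK3 was at 23.7 to 68.2 CPM (counts scaled to library size) in LNCaP and at most 0.0592 CPM in PC-3, where 7 of 8 libraries were at 0. In CT1258 the luminal marker TMPRSS2 was listed at 0 in all 9 libraries, the epithelial marker EPCAM was at most 0.262 CPM, and fibroblast markers, almost all LUM, summed to 262 to 429 CPM, while KRT8, KRT18 and CDH1 were not found by these names. Marker sums also moved with treatment: in PC-3 the endothelial markers, almost all PECAM1, were 12.96 to 18.8 CPM with DMSO, 4.26 to 5.41 at 12 h and 8.0 to 10.1 at 24 h, and the epithelial markers went from 517 to 576 CPM to 334 to 371 at 12 h and 331 to 455 at 24 h. In LNCaP the endothelial marker VWF was at 22.9 to 40.2 CPM with DMSO, 4.85 to 14.5 at 12 h and 6.18 to 7.28 at 24 h, and the fibroblast marker COL1A1 was at 19.97 to 27.9, 18.5 to 125 and 18.9 to 20.5 CPM, while the epithelial markers summed to 1360 to 1453, 1334 to 2039 and 1478 to 1520 CPM. The luminal prostate markers of LNCaP summed to 3457 to 3982 CPM with DMSO, 2843 to 3033 at 12 h and 3445 to 3532 at 24 h. The part of these marker differences in the results below was not tested.

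In the DMSO controls, PC-3 expressed nearly the whole set far more strongly than LNCaP. The lines were grown in different media, so line, medium and any library batch cannot be told apart. Of the 9 genes, 8 were higher in PC-3 (edgeR quasi-likelihood test, Benjamini-Hochberg adjusted p under 0.001), against 21.7% of all 15018 genes tested, and this held in every alternative run. The ERK-specific cytoplasmic phosphatase DUSP6 was at 404 and 527 CPM in PC-3 against 1.34, 1.89 and 1.54 in LNCaP, a difference of 298-fold (log2 difference 8.22 ± 0.23 SE, adjusted p = 6.2e-14). SPRY4, at 146 and 119 CPM against 0.917, 1.15 and 0.618, differed by 149.9-fold (log2 difference 7.23 ± 0.25 SE, adjusted p = 3.36e-13). SPRED1 was higher by 91.0-fold, SPRY2 by 88.9-fold and DUSP5 by 54.4-fold, each from a LNCaP level of at most 3.62 CPM. SPRY2 entered this test only through its level in PC-3, so its value and its part in the count of 8 support no difference. The remaining called genes, SPRY1, SPRED2 and DUSP4, differed by 5.54-, 5.32- and 4.20-fold. DUSP1, the nuclear phosphatase that acts on p38 and JNK as well as ERK, was the exception, with 36.7 and 57.7 CPM against 42.3, 51.4 and 46.2, overlapping groups and a log2 difference of 0.045 (95% interval -0.37 to 0.46, adjusted p = 0.852).

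In the human genome (GRCh37, GENCODE annotation), DUSP1 lies on chromosome 5 (172195099 to 172198198), DUSP4 on chromosome 8 (29190581 to 29208201), DUSP5 on chromosome 10 (112257665 to 112271291) and DUSP6 on chromosome 12 (89741012 to 89746278). SPRY1 lies on chromosome 4 (124317950 to 124324915), SPRY2 on chromosome 13 (80910111 to 80915261), SPRY4 on chromosome 5 (141689992 to 141706020), SPRED1 on chromosome 15 (38545037 to 38649450) and SPRED2 on chromosome 2 (65537985 to 65659771). Levels of different genes can be compared only per length. Per kilobase of annotated exon, DUSP6 led in PC-3 DMSO at 121 ± 23 CPM per kb (SD, n = 2), followed by DUSP5 at 53.2 ± 28 and DUSP4 at 38.5 ± 1.3. The other 6 lay between 15.2 ± 1.2 (SPRED1) and 28.0 ± 2.3 (SPRED2), and neighbours in this order overlapped in their libraries, except for DUSP6 above DUSP5 and DUSP4 above SPRED2. In LNCaP DMSO, DUSP1 led at 23.2 ± 2.3 CPM per kb (SD, n = 3), followed by DUSP4 at 9.34 ± 3.7, SPRED2 at 5.37 ± 1.3 and SPRY1 at 4.62 ± 0.64. The other 5 genes were between 0.137 ± 0.041 (SPRY4) and 1.00 ± 0.38 (DUSP5), with DUSP1, SPRY1, DUSP5 and DUSP6 each separated from the next lower gene. Of DUSP6's exon bases, 28.6% lie under a non-coding gene on the opposite strand, and strand use in counting was not given in the sources used here.

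**Figure D1:**
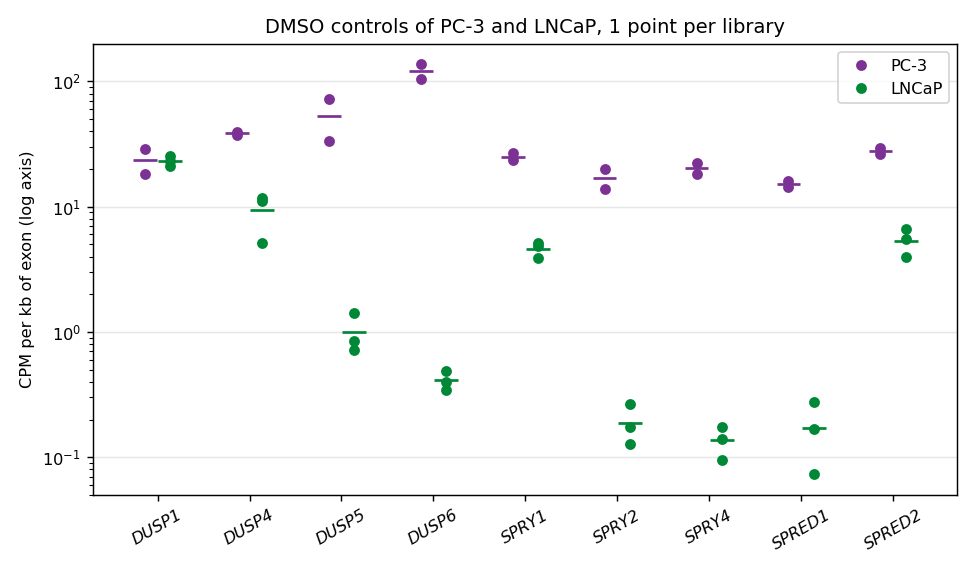
Levels of the 9 genes in the DMSO controls of PC-3 (2 libraries) and LNCaP (3 libraries), as CPM per kilobase of exon on a log axis, with 1 point per library and a bar at the mean. DUSP1 overlaps between the lines. DUSP6, SPRY4, SPRY2, SPRED1 and DUSP5 do not overlap, and their fitted differences between the lines are 54.4-fold or more. SPRY2 entered that fit only through PC-3.

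In PC-3, most of the set was lower after 12 h of PDA-66. At adjusted p under 0.001, 5 of the 9 genes were lower (DUSP5, DUSP6, SPRY1, SPRY4 and SPRED2) and 0 were higher, against 14.6% of all genes lower and 13.0% higher. At an unadjusted p under 0.05 the count was 7, against 61.4% of all genes, and DESeq2 also called DUSP1 higher. The treated and DMSO libraries did not overlap, with treated lower, for 7 of the 9 genes, against 35.4% of all genes. The median log2 fold change was -1.16 over the 9 genes and -0.0052 over all genes. At 24 h, 2 genes (DUSP6 and SPRED2) were lower and 0 higher, against 10.5% of all genes lower and 8.88% higher, 6 genes had an unadjusted p under 0.05 (56.4% of all genes did), and the median was -0.29.

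DUSP6 fell at both times in PC-3. Its level was 404 and 527 CPM with DMSO, 181, 165 and 172 at 12 h and 277, 273 and 252 at 24 h. The 3 groups did not overlap: all treated libraries were below both controls, and the 24 h libraries lay between. The log2 fold change was -1.43 ± 0.11 (SE, adjusted p = 3.74e-07) at 12 h and -0.80 ± 0.11 (SE, adjusted p = 8.16e-05) at 24 h. DUSP5, the nuclear phosphatase specific for ERK, was at 84.9 and 185 CPM in the controls, which themselves differed, at 46.3, 46.1 and 44.7 after 12 h and at 48.3, 62.5 and 70.2 after 24 h. All 6 treated libraries were below the lower control. Its log2 fold change at 12 h was -1.56 ± 0.24 (SE, adjusted p = 9.55e-05), but -0.88 without DMSO replicate 3 and -2.01 without DMSO replicate 2, and with the 2 groups fitted alone its adjusted p was 0.00125. At 24 h it was -1.16 ± 0.23 (SE, adjusted p = 0.00121), short of the threshold, which it passed without DMSO replicate 2 (-1.61, adjusted p = 1.15e-06) and missed by more without DMSO replicate 3 (-0.48).

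DUSP4, a nuclear phosphatase, stayed at 273 and 286 CPM with DMSO, 264, 257 and 266 at 12 h and 266, 267 and 280.2 at 24 h. Its 12 h fold change of -0.092 had a 95% interval of -0.28 to 0.10. DUSP1 was at 36.7 and 57.7 CPM in the controls, 68.7, 72.5 and 74.0 at 12 h and 49.8, 53.6 and 59.5 at 24 h. The 12 h libraries were above both controls, and its log2 fold change was 0.60 ± 0.15 (SE, adjusted p = 0.0048). It passed the threshold without DMSO replicate 3 (0.97, adjusted p = 2.32e-05) and was 0.32 without DMSO replicate 2.

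Of the Sprouty genes in PC-3, SPRY1 and SPRY4 fell at 12 h and SPRY2 was not called. SPRY1 was at 92.8 and 106 CPM with DMSO, 43.3, 39.7 and 44.2 at 12 h and 85.7, 84.3 and 82.8 at 24 h. The 12 h libraries were less than the lowest 24 h library by a wide margin and the 24 h libraries came close to the controls. Its log2 fold change was -1.23 ± 0.10 (SE, adjusted p = 3.99e-07) at 12 h and -0.24 ± 0.10 (SE, adjusted p = 0.0541) at 24 h. SPRY4 went from 146 and 119 CPM to 52.1, 55.0 and 57.6 at 12 h and 85.7, 93.3 and 103 at 24 h, again without overlap between the 3 groups. Its log2 fold change was -1.27 ± 0.11 (SE, adjusted p = 1.09e-06) and then -0.50 ± 0.11 (SE, adjusted p = 0.0027), the latter past the threshold without DMSO replicate 3 (-0.62, adjusted p = 0.000399). SPRY2, which binds the ubiquitin ligase CBL, was at 44.3 and 63.8 CPM with DMSO, 64.3, 62.1 and 61.1 at 12 h and 59.1, 57.3 and 54.9 at 24 h. The replicate 2 control was low, and the 12 h log2 fold change was 0.51 without DMSO replicate 3 and -0.022 without DMSO replicate 2.

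SPRED2 fell at both times in PC-3, and SPRED1 did not pass the test. SPRED2 was at 163 and 145 CPM with DMSO, 68.6, 68.1 and 70.7 at 12 h and 89.5, 90.9 and 88.4 at 24 h. Its libraries were tight within groups, and the groups did not overlap. The log2 fold change was -1.16 ± 0.09 (SE, adjusted p = 3.32e-07) and -0.78 ± 0.09 (SE, adjusted p = 1.67e-05). SPRED1 was at 125 and 112 CPM with DMSO, 97.1, 81.1 and 81.6 at 12 h and 107, 101 and 80.7 at 24 h, with all treated libraries below both controls and a 12 h log2 fold change of -0.45 ± 0.13 (SE, adjusted p = 0.00895).

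**Figure D2:**
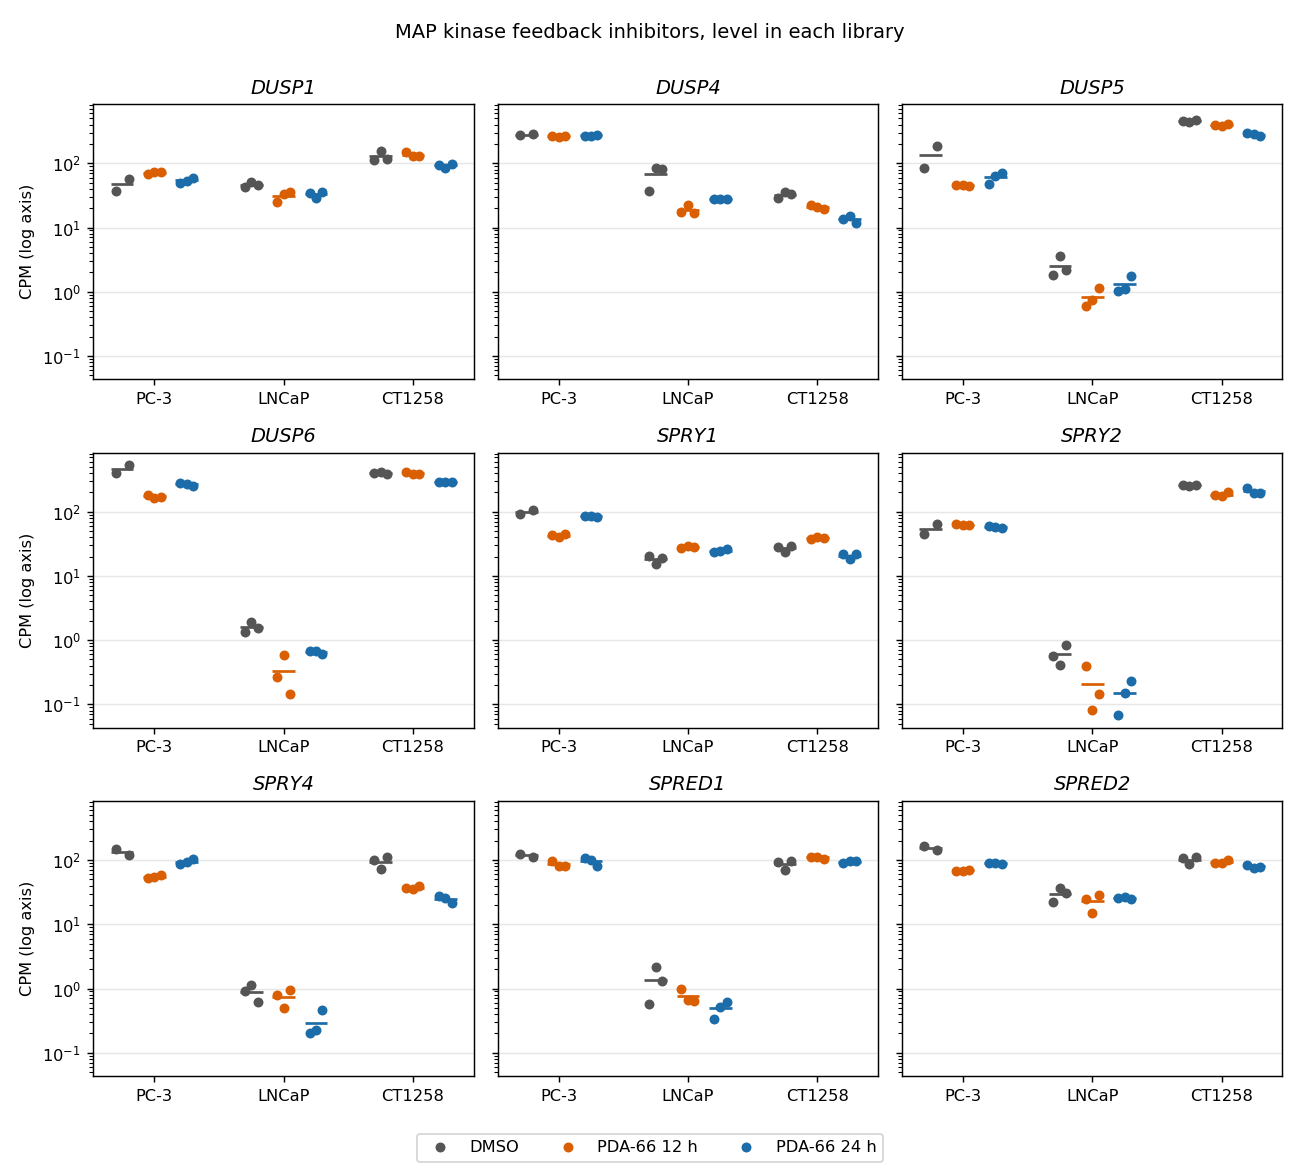
Level of each of the 9 genes in every library, in CPM on a log axis, for DMSO, 12 h and 24 h of PDA-66 in PC-3 (8 libraries), LNCaP (9) and CT1258 (9), with 1 point per library and a bar at the mean. In PC-3, DUSP6 dips from 404 and 527 CPM to between 165 and 181 at 12 h and is at 252 to 277 at 24 h, while in CT1258 it is level until 12 h and lower at 24 h.

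In LNCaP the spread between libraries was wider (biological coefficient of variation 0.240, against 0.0971 in PC-3 and 0.100 in CT1258), and SPRY2, with 1 to 11 counts per library, was too low to test. None of the 8 genes tested passed an adjusted p of 0.001 at 12 h (0.00760% of all genes did) or at 24 h (0%) by edgeR. At an unadjusted p under 0.05 there were 5 genes at 12 h, against 3950 of 13156 genes tested, and 7 at 24 h, against 2599. DESeq2 called 1 and 0, against 4.72% and 2.18% of all genes, and limma voom 2 and 1, against 13.9% and 11.2%. At the lenient threshold of 0.05, 3 genes were lower at 12 h (DUSP4, DUSP5 and DUSP6) against 4.62% of all genes, and 1, SPRY1, was higher, against 4.52%. DUSP6 entered all LNCaP counts given here through its DMSO libraries, where it was highest, so its part in them supports no fall. At 24 h 1 gene, DUSP4, was lower, against 1.57%, and 0 were higher, against 1.35%. Without 12 h replicate 2, 5 genes passed 0.05 at 12 h (DUSP1, DUSP4, DUSP5, DUSP6 and SPRY1) and 5 at 24 h (DUSP1, DUSP4, DUSP6, SPRY1 and SPRY4). SPRY1 was higher and the other 4 lower at each time, while the shares of all genes also grew in that fit, to 14.1% higher and 15.0% lower at 12 h and 13.5% and 14.5% at 24 h. With the 12 h and DMSO groups fitted alone, 0 of the 8 genes passed 0.05 at 12 h. With the 24 h and DMSO groups fitted alone, 3 of 6 genes tested passed 0.05 at 24 h. Among these were DUSP4 (adjusted p = 0.0134) and DUSP6 (adjusted p = 0.0173, against 0.0976 with all libraries). The shares of all genes at 0.05 are not given for these fits. Treated libraries lay below all controls without overlap for 4 of the 8 genes at 12 h, against 14.6% of all genes, and for 5 at 24 h, against 21.6%.

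DUSP4 fell at both times in LNCaP at the threshold of 0.05. It was at 37.3, 85.9 and 80.6 CPM with DMSO, 17.4, 22.5 and 16.9 at 12 h and 28.2, 27.9 and 27.8 at 24 h. The replicate 1 control was the lowest of the 3, and every treated library was below it. The log2 fold change was -1.85 ± 0.29 (SE, adjusted p = 0.00881) at 12 h, past 0.05 with any 1 library left out (-1.98, adjusted p = 0.00135, without 12 h replicate 2) but not with the 2 groups alone (adjusted p = 0.0664), and -1.28 ± 0.29 (SE, adjusted p = 0.0474) at 24 h, lost in 7 of 9 fits with a library left out (adjusted p up to 0.194). DUSP6 was at 1.34, 1.89 and 1.54 CPM with DMSO, 0.266, 0.576 and 0.143 at 12 h and 0.677, 0.671 and 0.613 at 24 h, that is 2 to 23 counts per library. All treated libraries were below all controls, with a 12 h log2 fold change of -2.28 ± 0.42 (SE, adjusted p = 0.0141), lost without DMSO replicate 2 or 3 (adjusted p up to 0.0547) and -2.88 without 12 h replicate 2 (adjusted p = 0.00127). With the PDA-66 groups fitted alone DUSP6 was not tested, so it passed the expression filter only through DMSO, the group where it was highest. These DUSP6 values therefore describe the libraries and support no fall.

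DUSP5 was at 1.83, 3.62 and 2.16 CPM in LNCaP with DMSO, 0.598, 0.741 and 1.15 at 12 h and 1.02, 1.12 and 1.76 at 24 h. Its libraries did not overlap with the controls at either time, and its 12 h log2 fold change of -1.60 ± 0.39 (SE, adjusted p = 0.0344) was lost in 6 of 9 fits with a library left out. DUSP1 was at 42.3, 51.4 and 46.2 CPM with DMSO, 24.9, 32.8 and 35.7 at 12 h and 34.9, 28.8 and 35.8 at 24 h, below the controls in all 6 treated libraries, with a 12 h log2 fold change of -0.58 ± 0.18 (SE, adjusted p = 0.0755). SPRY1 was higher at 12 h at the threshold of 0.05. It was at 20.3, 15.5 and 19.1 CPM with DMSO, 27.1, 28.9 and 28.1 at 12 h and 23.2, 24.4 and 25.9 at 24 h, above the controls in all 6 treated libraries. Its log2 fold change at 12 h was 0.61 ± 0.16 (SE, adjusted p = 0.0405), lost in 6 of 9 fits with a library left out (adjusted p up to 0.14). SPRED2 was at 22.01, 36.3 and 30.4 CPM with DMSO, 24.4, 15.1 and 28.9 at 12 h and 25.9, 26.2 and 24.8 at 24 h, with overlapping groups and a 12 h log2 fold change of -0.37 (-0.14 without 12 h replicate 2), and SPRY4 and SPRED1 stayed at or below 2.14 CPM in every library.

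In CT1258, 4 of the 9 genes were called at 12 h, near the 44.3% of all genes called, and the genes called at 24 h were lower. At 12 h and an adjusted p under 0.001, 3 genes were lower (DUSP4, SPRY2 and SPRY4) and 1 was higher (SPRY1), against 22.1% of all genes lower and 22.2% higher, so the count of members higher was below the background share and the share lower was 3 of 9. Without 12 h replicate 1 or 2 the 12 h count was 1, and without 12 h replicate 3 it was 2, against 32.2% to 37.0% of all genes called in either direction in those fits and 44.3% with all libraries. At 24 h, 4 genes were lower (DUSP4, DUSP5, DUSP6 and SPRY4) and 0 higher, against 17.2% and 16.6%. At an adjusted p under 0.05, 8 of the 9 genes were lower at 24 h, all but SPRED1, against 31.6% of all genes. Without DMSO replicate 2, whose counts differed most from the other controls, 8 genes passed 0.001 at 24 h, and the share of all genes called in either direction was 46.6%, against 33.8% with all libraries. The controls were sequenced to a larger total than the treated libraries, and with their counts thinned the 24 h count stayed at 4, against 33.2% of all genes called in either direction.

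Of the 9 genes, SPRY4 had the largest fold change in CT1258 at both times. It was at 99.7, 71.4 and 112 CPM with DMSO, 36.5, 34.9 and 39.8 at 12 h and 27.7, 26.0 and 21.4 at 24 h. The second control was lowest of the controls and still above every treated library. The log2 fold change was -1.35 ± 0.15 (SE, adjusted p = 2.89e-06) at 12 h and -1.91 ± 0.16 (SE, adjusted p = 3.03e-07) at 24 h. DUSP4 went from 28.6, 35.2 and 33.1 CPM to 22.6, 20.7 and 19.2 at 12 h and 13.5, 15.3 and 11.7 at 24 h, without overlap between groups. Its log2 fold change was -0.63 ± 0.12 (SE, adjusted p = 0.000398) at 12 h, a call lost in 4 fits with a library left out (adjusted p up to 0.00349), and -1.26 ± 0.13 (SE, adjusted p = 2.48e-06) at 24 h.

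DUSP6 and DUSP5, both ERK-specific, were near the controls at 12 h in CT1258 and lower at 24 h. DUSP6 was at 397, 421 and 390.4 CPM with DMSO, 414, 391 and 387 at 12 h and 287, 290.0 and 286 at 24 h. The DMSO and 12 h libraries overlapped, and every 24 h library was below them. Its log2 fold change was -0.021 at 12 h (95% interval -0.18 to 0.14) and -0.49 ± 0.074 (SE, adjusted p = 7e-05) at 24 h. DUSP5 was at 458, 431 and 473 CPM with DMSO, 395, 382 and 410.2 at 12 h and 295, 285 and 262 at 24 h, without overlap between groups, and its log2 fold change was -0.20 ± 0.079 (SE, adjusted p = 0.0364) and -0.69 ± 0.079 (SE, adjusted p = 6.22e-06). DUSP1 was at 113, 153 and 118 CPM with DMSO, 152, 130.1 and 128 at 12 h and 95.2, 85.8 and 97.3 at 24 h, with only the 24 h libraries below all controls.

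At 12 h in CT1258, SPRY1 rose and SPRY2 fell. SPRY1 was at 27.8, 23.4 and 29.6 CPM with DMSO, 37.6, 39.7 and 39.3 at 12 h and 21.8, 18.5 and 21.7 at 24 h. It was above every control at 12 h and below every control at 24 h, with a log2 fold change of 0.53 ± 0.11 (SE, adjusted p = 0.000687) and -0.38 ± 0.12 (SE, adjusted p = 0.0112). The 12 h call was lost in 6 fits with a library left out (adjusted p up to 0.00447). SPRY2 was at 259.8, 254 and 257 CPM with DMSO, 179, 173 and 199.7 at 12 h and 230.5, 197 and 195 at 24 h, with overlap between the times and all treated libraries below the controls, and a 12 h log2 fold change of -0.48 ± 0.088 (SE, adjusted p = 0.000234) that was lost in 2 such fits (adjusted p up to 0.00278). Neither SPRED gene passed 0.001: SPRED1 was at 94.6, 69.6 and 96.5 CPM with DMSO, 112, 112 and 106 at 12 h and 91.6, 96.3 and 96.4 at 24 h, and SPRED2 was at 108, 87.5 and 109.7 with DMSO, 90.1, 89.1 and 102 at 12 h and 84.9, 76.2 and 77.2 at 24 h. SPRED1 at 24 h changed direction (-0.021) without DMSO replicate 2.

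**Figure D3:**
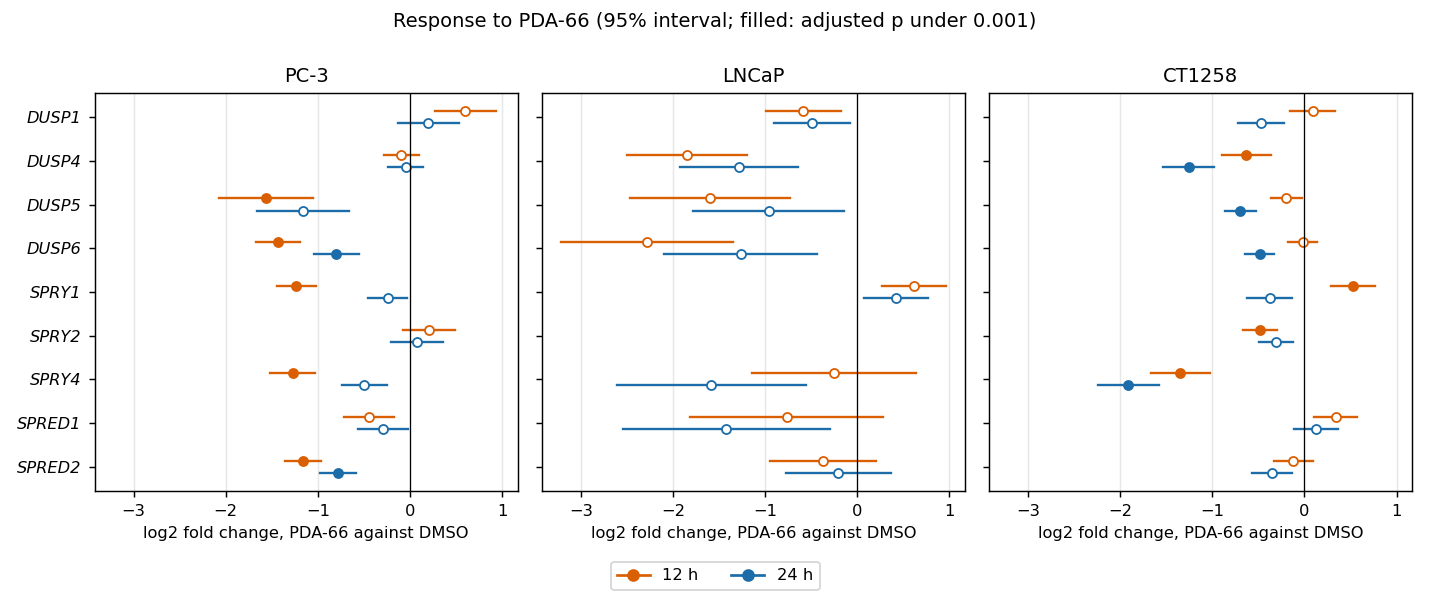
Log2 fold change of each gene against DMSO at 12 h and 24 h in the 3 lines, with 95% intervals from the edgeR fit, where filled points have an adjusted p under 0.001. In PC-3 the intervals of DUSP6, SPRY1, SPRY4 and SPRED2 are centred between -1.16 and -1.43 at 12 h and nearer to 0 at 24 h, whereas in CT1258 the lowest point is SPRY4 at 24 h (-1.91).

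Most of the 9 genes were higher at 24 h than at 12 h in PC-3, and lower in CT1258. These comparisons are between PDA-66 libraries, and the DMSO libraries enter them only through the expression filter, the scaling and the estimate of the spread. In PC-3, 2 genes rose (SPRY1 and SPRY4) and 0 fell, against 0.777% of all genes higher and 0.631% lower, and at 0.05 there were 4 (with DUSP6 and SPRED2), against 5.59%. Their libraries were higher without overlap for 6 of the 9 genes, against 18.6% of all genes. The log2 change was 0.99 ± 0.09 (SE, adjusted p = 2.72e-05) for SPRY1, 0.77 ± 0.10 (SE, adjusted p = 0.000482) for SPRY4 and 0.63 ± 0.10 (SE, adjusted p = 0.00175) for DUSP6. The SPRY4 call was lost when any 1 of the 6 PDA-66 libraries was left out (adjusted p up to 0.00493), and DUSP6 passed when either control was left out.

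In CT1258, 1 gene fell from 12 h to 24 h (SPRY1) and 0 rose, against 1.28% of all genes lower and 0.850% higher. At 0.05, 6 fell (the 4 DUSP genes, SPRY1 and SPRY4), against 10.2%, and 8 of 9 genes, all but SPRY2, were lower without overlap, against 22.8%. SPRY1 changed by -0.91 ± 0.12 (SE, adjusted p = 0.000235), lost when any 1 of the 6 PDA-66 libraries was left out (adjusted p up to 0.00290). DUSP5 changed by -0.50 ± 0.08 (SE, adjusted p = 0.00104) and DUSP6 by -0.47 ± 0.074 (SE, adjusted p = 0.00102). Without DMSO replicate 2, 6 genes passed 0.001, and the share of all genes called was 13.6%, against 2.13% with all libraries. In LNCaP 0 genes passed 0.001 (background 0%) or 0.05 (background 0%) by edgeR, and SPRY4 alone had an unadjusted p under 0.05 (1 member, against 6.36% of all genes). DESeq2 also called 0 in LNCaP, and limma voom called DUSP6, against 1.44% of all genes.

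The difference between lines in this change with time was tested directly, in a fit over the 11736 genes shared by symbol and with a contrast added after the values were seen. PC-3 and CT1258 differed for 3 genes at an adjusted p under 0.05, against 1.51% of all genes. The log2 change in PC-3 exceeded that in CT1258 by 1.91 ± 0.17 (SE, adjusted p = 1.09e-06) for SPRY1, 1.35 ± 0.23 (SE, adjusted p = 0.00315) for SPRY4 and 1.10 ± 0.18 (SE, adjusted p = 0.00141) for DUSP6. PC-3 and LNCaP differed for SPRY1 and SPRY4 (2 genes, against 0.315%). The SPRY4 difference (adjusted p = 0.0348) rests on 3 to 13 counts per LNCaP PDA-66 library. LNCaP and CT1258 differed for DUSP4 and SPRY1 (2 genes, against 2.04%). The last count was 0 without any 1 of LNCaP 24 h replicates 1 to 3, CT1258 12 h replicates 1 to 3 or CT1258 24 h replicates 1 and 3, 1 without CT1258 24 h replicate 2, and 3 without LNCaP 12 h replicate 2. The count for PC-3 against LNCaP was 1 without any 1 of the 3 PC-3 libraries at 12 h, PC-3 24 h replicates 2 and 3, LNCaP 12 h replicate 3 or LNCaP 24 h replicates 1 and 2, and stayed at 2 without LNCaP 12 h replicate 2.

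**Figure D4:**
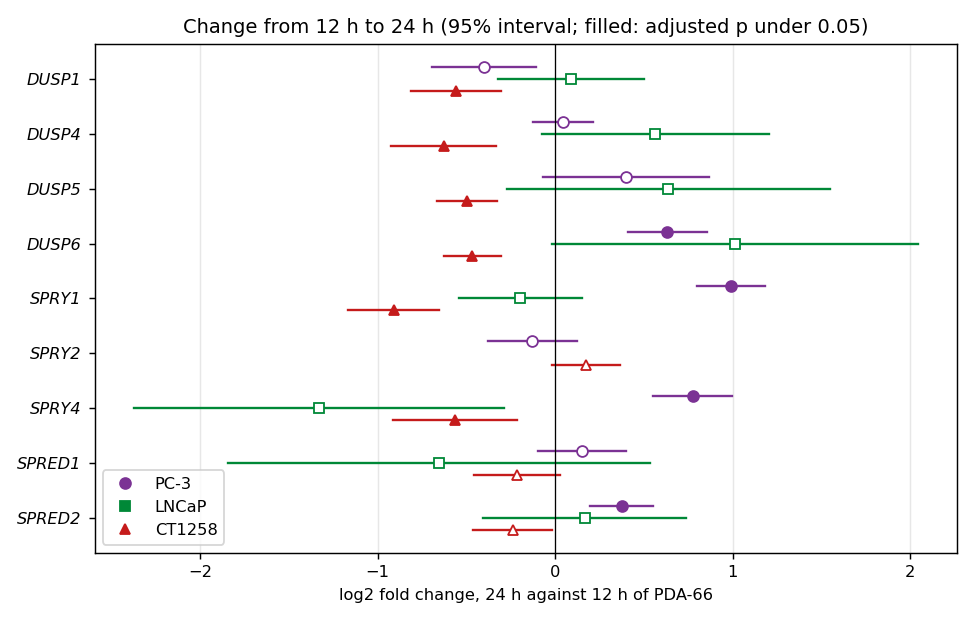
Log2 change from 12 h to 24 h of PDA-66 for each gene in PC-3, LNCaP and CT1258, with 95% intervals, where filled points have an adjusted p under 0.05. Of the 9 genes, 7 are above 0 in PC-3 and 8 are below 0 in CT1258.

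The response to PDA-66 against DMSO was compared between lines in the same way, at an adjusted p under 0.05. PC-3 and LNCaP differed at 12 h for 5 genes, against 19.6% of all genes, and at 24 h for 3, against 9.70%. PC-3 and CT1258 differed for 6 at 12 h, against 30.1%, and for 2 at 24 h, against 21.2%. LNCaP and CT1258 differed for 6 at 12 h, against 40.2%, and for 3 at 24 h, against 21.1%. The counts of 5, 3 and 3 include SPRY2, which was too low in LNCaP to be tested there and entered this fit through the other lines, and without it they are 4, 2 and 2. SPRY1 was lower than the controls at 12 h in PC-3 and above them in the other lines. Its 12 h log2 change in PC-3 minus that in LNCaP was -1.81 ± 0.18 (SE, adjusted p = 3.96e-07), and minus that in CT1258 -1.78 ± 0.18 (SE, adjusted p = 1.22e-07). For DUSP4, the log2 change in PC-3 minus that in LNCaP at 12 h was 1.79 ± 0.29 (SE, adjusted p = 0.000138), and minus that in CT1258 at 24 h 1.2 ± 0.29 (SE, adjusted p = 0.00471). For PC-3 against LNCaP at 12 h, 3 genes (SPRY2 being counted here and in the next values wherever it passed) were left without LNCaP DMSO replicate 3 or 12 h replicate 3. Without LNCaP 12 h replicate 2, 6 were found at 12 h and 5 at 24 h, and for LNCaP against CT1258 5 and 4. For PC-3 against CT1258 at 24 h, 4 were found without PC-3 DMSO replicate 3, and for LNCaP against CT1258 at 24 h, 1 without LNCaP 24 h replicate 1.

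Other genes that ERK switches on were read from a list of 15 immediate-early and related targets. In PC-3, 6 of the 15 fell at 12 h, against 14.6% of all genes, and 0 rose (median log2 fold change -0.48, against -0.0052 over all genes), and 4 fell at 24 h, against 10.5% (median -0.26). FOS, an immediate-early transcription factor, ranged over 48.3 to 132 CPM with DMSO and 8.42 to 10.5 at 12 h, a log2 fold change of -3.23 ± 0.33 (SE, adjusted p = 3.91e-06). Its partner FOSB changed by -2.52 ± 0.38 (SE, adjusted p = 0.000144) at 24 h, and MYC by -1.76 ± 0.092 (SE, adjusted p = 9.53e-09) at 12 h and -1.0 ± 0.092 (SE, adjusted p = 3.02e-06) at 24 h. In LNCaP, at 0.05, 5 of 12 tested fell and 1 rose at 12 h, against 4.62% and 4.52% of all genes. At 24 h 3 fell, against 1.57%, among them the zinc finger factor EGR1 with -3.15 ± 0.35 (SE, adjusted p = 0.00548) and FOS with -2.61 ± 0.33 (SE, adjusted p = 0.0129). Without 12 h replicate 2, 5 fell and 1 rose at each time. In CT1258, 6 of 11 tested fell and 1 rose at 12 h (median -0.59), against 22.1% and 22.2% of all genes, and 6 fell at 24 h (median -0.71), against 17.2%. There PHLDA1 changed by -1.74 ± 0.16 (SE, adjusted p = 4.23e-07) at 12 h, and the growth factor HBEGF rose by 1.95 ± 0.27 (SE, adjusted p = 2.06e-05).

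**Figure D5:**
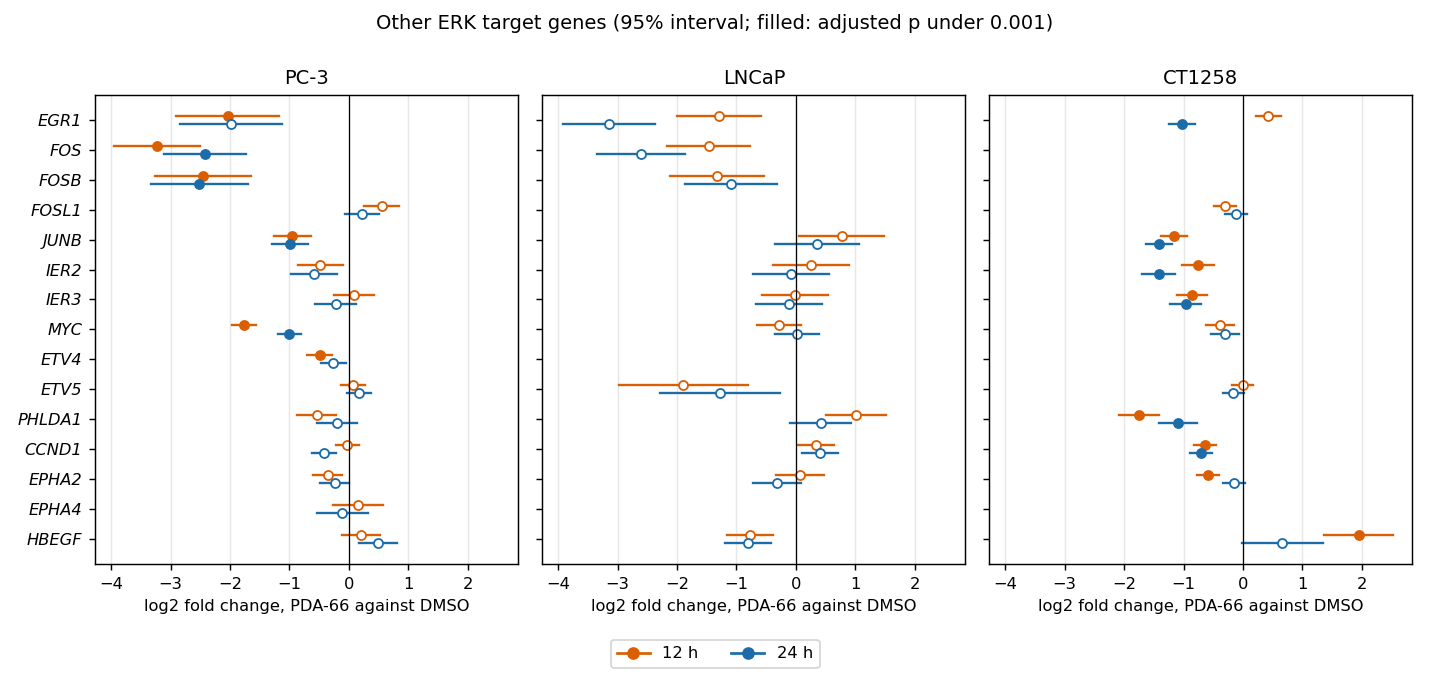
Log2 fold change against DMSO at 12 h and 24 h of other ERK target genes in the 3 lines, with 95% intervals, where filled points have an adjusted p under 0.001. FOS in PC-3 at 12 h is at -3.23, and HBEGF in CT1258 at 12 h is at 1.95, opposite to most of the list.

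The other inhibitors of the pathway gave different counts. Among the other MAP kinase phosphatases, 2 of 6 rose in PC-3 at 12 h, against 13.0% of all genes, DUSP9 by 1.95 ± 0.21 (SE, adjusted p = 6.26e-06) and DUSP7 by 0.70 ± 0.10 (SE, adjusted p = 6.87e-05), and 0 fell. In LNCaP 1 of 6, DUSP2, rose at 0.05 at 12 h, against 4.52%, by 2.75 ± 0.32 (SE, adjusted p = 0.0049), or by 2.55 without 12 h replicate 2, a fit in which 2 rose and 2 fell. In CT1258 1 of 3 tested, DUSP16, rose, against 22.2%, by 1.56 ± 0.079 (SE, adjusted p = 3.2e-09). Of the other feedback and RAS inhibitors, 3 of 9 tested rose in PC-3 at 12 h and 0 fell, against 13.0% and 14.6% of all genes. These were the ubiquitin ligase CBL (1.57 ± 0.16 SE, adjusted p = 2.83e-06), the EGF receptor inhibitor ERRFI1 (0.94 ± 0.17 SE, adjusted p = 0.000499) and the FGF receptor inhibitor IL17RD (0.71 ± 0.11 SE, adjusted p = 0.000133). In LNCaP IL17RD instead changed by -1.0 ± 0.24 (SE, adjusted p = 0.0315), a fall at 0.05, and by -0.86 without 12 h replicate 2 (adjusted p = 0.0149). It was the only 1 of 10 tested to pass at 12 h with all libraries, against 4.62% of all genes, while without that library 2 fell and 1 rose. In CT1258 the RAS GTPase activators RASA2 (0.79 ± 0.17 SE, adjusted p = 0.000828) and NF1 (0.79 ± 0.17 SE, adjusted p = 0.000839) rose, and PEBP1, which binds RAF, fell (-0.51 ± 0.11 SE, adjusted p = 0.00086), so that 2 of 9 rose and 1 fell at 12 h, against 22.2% and 22.1%.

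Of 21 genes of the ERK cascade itself, 4 rose and 0 fell in PC-3 at 12 h, against 13.0% and 14.6% of all genes, and 3 rose at 24 h, against 8.88%, including the scaffold KSR1 by 1.63 ± 0.31 (SE, adjusted p = 0.000892). In LNCaP 0 of 21 passed even 0.05 by edgeR at either time, and 3 and 1 had an unadjusted p under 0.05, against 3950 and 2599 of all 13156 genes. Without 12 h replicate 2, 2 fell and 0 rose at 12 h, and 2 fell and 1 rose at 24 h. In CT1258 4 of 15 rose and 3 fell at 12 h, against 22.2% and 22.1%. MAPK3, which encodes an ERK kinase, was at 1.44 to 2.53 CPM with DMSO and 15.7 to 17.8 at 24 h, a log2 fold change of 3.03 ± 0.19 (SE, adjusted p = 3.43e-08), and the kinase gene MKNK2 changed by -2.23 ± 0.095 (SE, adjusted p = 1.32e-09) at 12 h. In the JNK and p38 cascades, 4 of 9 rose and 1 fell in PC-3 at 12 h, against 13.0% and 14.6%, with MAP3K1 at 0.91 ± 0.17 (SE, adjusted p = 0.000455) and MAP3K5 at -0.92 ± 0.12 (SE, adjusted p = 4.03e-05), and in CT1258 2 of 8 rose and 1 fell, against 22.2% and 22.1%, with MAPK9 at 0.77 ± 0.079 (SE, adjusted p = 1.36e-06). Again in CT1258, MAP2K7 changed by -1.02 ± 0.10 (SE, adjusted p = 2.33e-06) at 24 h.

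The genes whose levels moved most like those of DUSP6 were found by Pearson correlation of log2 CPM, each taken as the deviation from its line's mean, over 26 libraries and 8264 genes. They were RIN2 (r = 0.898), ZNF740 (0.879), AIG1 (0.874), NFKBIZ (0.861) and TRIB1 (0.861). Among the members DUSP5 came closest (0.858, rank 7), followed by DUSP4 (0.722), SPRED2 (0.653), SPRED1 (0.509), SPRY4 (0.478), SPRY1 (0.272) and DUSP1 (0.219). The points share libraries, treatment groups and depth, so these are descriptions only. In the 9 LNCaP libraries, DUSP6 itself had 2 to 23 counts, SPRY4 3 to 14 and SPRED1 5 to 26, so counting error enters their values there. SPRY2, too low in LNCaP, was not ranked.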

How the data were processed

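RNA was measured in 3 cell lines with PDA-66 (15 µM, times of 12 h and 24 h) and in DMSO controls, as independent biological replicates per the study's methods. The authors aligned single-end reads with STAR 2.3.1s (human, hg19) or BWA (canine, CanFam3.1), and deposited raw read counts per gene, leaving out 1 PC-3 control as an outlier. The 9 genes, the gene lists and the tests were chosen with earlier results of these data known. From the counts, edgeR 4.0.16 in R 4.3.3 was used: expression filter, TMM scaling, quasi-likelihood F-test per line over all genes, Benjamini-Hochberg adjusted p under 0.001 (0.05 between lines and for LNCaP), with CPM scaled within a line. Other genes were named by the largest changes past the threshold in each list, up to 2 per list and line, with MYC, IL17RD and PEBP1 in addition after values were seen. The likeness to DUSP6 used the top 5 correlations. Alternatives were limma 3.58.1 voom, DESeq2 1.42.0, other filters, other scalings and left-out libraries. The test was checked on simulated counts. PC-3 12 h libraries 1 and 2 carry a group but no replicate label. The CT1258 table has 798 rows under protein entry names and 23 named by a bare number. Canine positions were not analysed here, and some genes that the naming rule covers are not reported here.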

Additional observations from a re-analysis of the deposited data

Results flagged for a closer look

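The response to PDA-66, or its change from 12 h to 24 h, differed between cell lines by a test of the difference itself (edgeR quasi-likelihood, adjusted p under 0.05 over 11736 shared genes) for 32 pairings of gene, lines and time. Each value is the log2 change in the line named first minus that in the line named second. No explanation was weighed, and comparisons within a line share their DMSO libraries. Values of single genes were not searched for libraries far from the rest in these groups of 2 or 3 libraries. Over all genes, LNCaP 12 h replicate 2 stood apart, as given above.

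For PC-3 against LNCaP, the difference at 12 h was 1.22 for DUSP1, 1.79 for DUSP4, -1.81 for SPRY1, 1.68 for SPRY2 and -0.76 for SPRED2. At 24 h it was 1.25 for DUSP4, -0.64 for SPRY1 and 2.10 for SPRY2. For the change from 12 h to 24 h it was 1.17 for SPRY1 and 2.10 for SPRY4.

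For PC-3 against CT1258, the difference at 12 h was -1.39 for DUSP5, -1.43 for DUSP6, -1.78 for SPRY1, 0.67 for SPRY2, -0.80 for SPRED1 and -1.06 for SPRED2. At 24 h it was 1.2 for DUSP4 and 1.41 for SPRY4. For the change from 12 h to 24 h it was 1.10 for DUSP6, 1.91 for SPRY1 and 1.35 for SPRY4.

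For LNCaP against CT1258, the difference at 12 h was -0.72 for DUSP1, -1.27 for DUSP4, -1.44 for DUSP5, -2.32 for DUSP6, 1.05 for SPRY4 and -1.14 for SPRED1. At 24 h it was 0.76 for SPRY1, -1.72 for SPRY2 and -1.57 for SPRED1. For the change from 12 h to 24 h it was 1.22 for DUSP4 and 0.73 for SPRY1.

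The 3 SPRY2 differences that involve LNCaP rest on 1 to 11 counts per LNCaP library, where the gene was below the expression filter, so they are given as values and support no difference between the lines. The DUSP6 difference with LNCaP rests on 2 to 23 counts per LNCaP library, and within LNCaP only the DMSO libraries carried it past the filter. Differences with LNCaP rest on 3 to 14 such counts for SPRY4, 5 to 26 for SPRED1 and 9 to 44 for DUSP5.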

How the results depend on the processing

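Of 1318 recomputed single-gene values, 1223 kept their direction and side of the threshold, 27 no longer passed, 55 newly passed and 13 changed sign, and the cause of these shifts was not tested. Counts of genes called moved as follows.

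At an adjusted p under 0.05 the counts within lines were 4 in PC-3 at 24 h, 4 in PC-3 from 12 h to 24 h, 4 and 1 in LNCaP at 12 h and 24 h, 8 in CT1258 at 24 h and 6 in CT1258 from 12 h to 24 h. All 4 in PC-3 at 24 h were lower, as were 3532 of 13777 genes, and the other shares at 0.05 are given above. With limma voom and quality weights the count was 6 in PC-3 from 12 h to 24 h, against 16.8% of all genes (1.41% by edgeR). In LNCaP the voom counts were 2, 1 and 1 (12 h, 24 h and between), against 13.9%, 11.2% and 1.44%. In CT1258 they were 8 and 6 (24 h and between), against 54.9% and 21.0% (33.8% and 2.13% by edgeR). In the voom fits SPRY4 in LNCaP at 12 h (0.16), SPRED2 in LNCaP from 12 h to 24 h (-0.13) and DUSP6 in CT1258 at 12 h (0.013) changed sign. With library size scaling alone, DUSP4 in PC-3 at 24 h (0.033) and DUSP6 in CT1258 at 12 h (0.012) changed sign. The CT1258 count from 12 h to 24 h was 2 with that scaling, 3 with no filter, 4 by DESeq2, 6 with the 2 groups alone and 3 with thinned DMSO counts. In the same order, the shares of all genes in these fits were 2.28%, 2.69%, 7.47%, 12.0% and 2.74%. DESeq2 called 1 gene in LNCaP at 12 h (4.72% of all genes), and the 2 groups alone gave 2 in CT1258 at 12 h (34.7%).

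Between lines, at an adjusted p under 0.001 the counts were 2 and 0 for PC-3 against LNCaP (12 h and 24 h), 2 and 1 for PC-3 against CT1258 and 2 and 0 for LNCaP against CT1258, and for the change with time 0, 1 and 0. With the 2 lines alone, PC-3 against CT1258 gave 6 at 24 h, and the change with time gave 1, 6 and 0. Shares of all genes are not given for these settings, nor for the between-line counts with 1 library left out. These counts therefore do not set the 9 genes apart from other genes.

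With any 1 PDA-66 library left out, the count in PC-3 from 12 h to 24 h was 1, against 0.429% to 0.574% of all genes. With 1 CT1258 library left out, the shares of all genes ranged over 32.2% to 56.0% at 12 h, 21.2% to 46.6% at 24 h and 0.201% to 13.6% between. Beside these shares, the CT1258 counts ranged from 1 to 4 at 12 h, 4 to 8 at 24 h and 0 to 6 between. Between lines they ranged from 3 to 6 and 2 to 5 for PC-3 against LNCaP, 4 to 6 and 2 to 4 for PC-3 against CT1258, and 4 to 6 and 1 to 4 for LNCaP against CT1258, and for the change with time from 1 to 2, 3 to 4 and 0 to 3. Signs changed within the ranges of SPRY2 in PC-3 (-0.022 to 0.51 at 12 h, -0.15 to 0.38 at 24 h), DUSP1 and DUSP4 in PC-3 at 24 h (-0.083 to 0.58 and -0.072 to 0.0070), DUSP1 and SPRED2 in LNCaP from 12 h to 24 h (-0.050 to 0.20 and -0.055 to 0.37), and DUSP6 at 12 h and SPRED1 at 24 h in CT1258 (-0.052 to 0.0070 and -0.021 to 0.21).

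The replicate numbers gave no sign of pairing: deviations of same-numbered libraries correlated at -0.1136 to 0.2008 in PC-3, -0.4195 to 0.1851 in LNCaP and -0.1895 to 0.153 in CT1258. For PC-3 12 h libraries 1 and 2 the number came from the column name, since the labels give only their group. The PC-3 range and the PC-3 block fit rest on that numbering. With the replicate number as a block, 5, 2 and 2 genes were called in PC-3 (12 h, 24 h and between), 0, 0 and 0 in LNCaP and 4, 4 and 1 in CT1258 at 0.001, as without it. Of all genes, the block fit called 22.9%, 15.0% and 0.987% in PC-3, 0% each time in LNCaP and 41.6%, 31.0% and 1.34% in CT1258. At 0.05 the block left 2 in LNCaP at 12 h (DUSP4 and DUSP6) and 0 at 24 h, against 4 and 1 without it. With the 2 groups alone, 0 passed 0.05 in LNCaP at 12 h, and 3 of 6 tested passed at 24 h. No shares of all genes at 0.05 are given for the block fit or the 2 groups alone, so these counts at 0.05 do not set the members apart. Few counts per library limit SPRY2, SPRY4, SPRED1, DUSP5 and DUSP6 in LNCaP.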
